A study of Homo sapiens with 6 samples.

Results

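SGK1, ERRFI1, DUSP1, NFKBIA, TSC22D3, ZBTB16, KLF9, KLF15, CEBPD and TIPARP are genes known to respond to androgens and to glucocorticoids. They were taken by symbol, with no measured value in the rule, but were chosen with earlier results of these data known. They are 10 of the 55765 gene symbols counted in the C4-2 libraries, and all 10 had a single row in every library. Upon androgen treatment at a supraphysiological level (SAL), 7 of the 10 were up-regulated, none was down-regulated, and DUSP1, KLF9 and CEBPD did not pass the test. Of all tested genes, 11.5% were up-regulated and 9.37% down-regulated. Among the 10, ERRFI1 and SGK1 changed the most, by 7.13-fold and 6.87-fold. TIPARP, ZBTB16, TSC22D3, NFKBIA and KLF15 rose by 1.74-fold to 2.19-fold.

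Androgens and glucocorticoids act through ligand-activated transcription factors of the same nuclear receptor subfamily. The DNA-binding domains of these factors are closely related, and they recognise inverted copies of the hexamer AGAACA that are spaced by 3 bases. Many genes that glucocorticoids induce in other tissues can therefore also be induced by androgens in prostate cells. The 10 genes encode a kinase, a phosphatase, an adaptor, an inhibitor of NF-kB, an ADP-ribosyltransferase and regulators of transcription, and several of them are used as reporters of steroid hormone action.

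C4-2 is a castration-resistant human prostate cancer cell line that was derived from LNCaP, so the samples model a single line without stroma. It was treated for 72 h with 1 nM of R1881 (methyltrienolone), a stable synthetic androgen, which is the SAL group (n = 3), or with the solvent DMSO (n = 3). Total RNA was sequenced, and the replicate numbers 1 to 3 of the sample labels pair each SAL library with a DMSO library. The study describes the 3 sequencing experiments of each condition as independent, and the p-values measure the spread between these pairs. In bulk RNA, more expressing cells and more RNA per cell cannot be told apart.

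The counts in genes ranged from 7864471 to 12532355 per library, of which rRNA genes took 11.9% to 27.8% and were removed. The rRNA share was highest in replicate 1 (27.7% in DMSO and 27.8% in SAL) and was higher in SAL than in DMSO in all 3 pairs. The known androgen target KLK3, which encodes PSA, rose from 800 ± 347 to 1809 ± 630 CPM (counts scaled to library size, mean ± SD, n = 3), which is 1.21 on the log2 scale (SE 0.10, adjusted p = 3.33e-07). Of 9 luminal prostate markers all were detected above 3 counts, with a summed level of 2567 to 4606 CPM in DMSO and 4853 to 9678 CPM in SAL. The markers of basal epithelium KRT5, KRT14 and TP63 had at most 3 counts in every library and a summed level under 0.372 CPM in DMSO and 0.329 CPM in SAL. The leukocyte markers (5 genes) summed to at most 0.668 CPM, the endothelial ones (2 genes) to at most 3.84 CPM and the fibroblast ones (5 genes) to at most 11.1 CPM. Of these, PTPRC, CD3E, CDH5 and COL1A2 were at 0 in all libraries. The fibroblast marker COL1A1 (14 to 88 counts) and the endothelial marker VWF (4 to 35 counts) were detected in every library.

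The proximal promoters of the members that frame the results are printed from RefSeq on GRCh38.p14, each as 250 bases before the transcription start and 50 bases from it on, 5′ to 3′ on the strand of the gene. The members with the largest changes come first. For SGK1, which has 3 annotated starts in RefSeq, the window of the start numbered 2 is shown (chr6:134177812-134178111, minus strand), because it alone of the member windows holds the hexamer AGAACA, here in capitals. The ERRFI1 window (chr1:8026260-8026559, minus strand) holds no copy of it on either strand.
SGK1: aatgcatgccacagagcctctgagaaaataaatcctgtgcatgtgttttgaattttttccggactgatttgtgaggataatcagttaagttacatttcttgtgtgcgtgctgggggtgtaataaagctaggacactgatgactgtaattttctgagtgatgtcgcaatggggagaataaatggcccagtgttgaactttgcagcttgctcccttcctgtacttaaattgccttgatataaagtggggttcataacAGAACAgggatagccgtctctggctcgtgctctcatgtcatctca
ERRFI1: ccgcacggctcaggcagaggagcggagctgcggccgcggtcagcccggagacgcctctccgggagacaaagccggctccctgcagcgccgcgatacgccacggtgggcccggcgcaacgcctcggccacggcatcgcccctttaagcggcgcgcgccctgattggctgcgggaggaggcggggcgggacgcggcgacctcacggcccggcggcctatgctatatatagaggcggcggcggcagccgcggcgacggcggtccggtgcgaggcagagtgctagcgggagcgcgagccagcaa

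The other pair is a gene that rose less and a gene that did not pass the test, both with a well-known element of another signalling pathway in the window. In the NFKBIA window (chr14:35404700-35404999, minus strand) the capitals mark GGAAATTCC, a core that NF-kB binds. In the DUSP1 window (chr5:172771146-172771445, minus strand) they mark TGACGTCA, the cAMP response element. These last elements were looked for after the windows had been read.
NFKBIA: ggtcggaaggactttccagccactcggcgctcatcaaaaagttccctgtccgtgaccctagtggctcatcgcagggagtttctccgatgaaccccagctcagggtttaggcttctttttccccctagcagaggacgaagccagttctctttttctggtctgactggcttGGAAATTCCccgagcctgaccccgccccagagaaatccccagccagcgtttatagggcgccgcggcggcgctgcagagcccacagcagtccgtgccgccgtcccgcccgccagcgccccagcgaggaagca
DUSP1: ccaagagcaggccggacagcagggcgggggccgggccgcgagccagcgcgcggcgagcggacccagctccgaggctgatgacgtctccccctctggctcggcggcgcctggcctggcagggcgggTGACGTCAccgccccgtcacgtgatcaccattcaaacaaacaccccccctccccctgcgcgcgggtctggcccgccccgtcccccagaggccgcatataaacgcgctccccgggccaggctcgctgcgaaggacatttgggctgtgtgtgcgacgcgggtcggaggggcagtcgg

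Windows were matched for 8 of the 10 members, all but ZBTB16 and CEBPD. There were 15 windows in all, since TSC22D3, TIPARP and SGK1 have several starts. The hexamer AGAACA, or TGTTCT for the other strand, was in 1 of these 15 windows and in 14.8% of all 35116 windows. In SGK1 its first base lies at position 6, counted from the transcription start as 1. Counted by gene, 1 of 8 members (12.5%) and 17.5% of all 27305 genes had it. The full element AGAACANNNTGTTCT was in none of the member windows and in 1 of all windows, and with 1 mismatch allowed in none of the member windows and in 58 of all windows (0.165%). The element TGACGTCA, which reads the same on both strands, began at position -125 in DUSP1 and was in 1.85% of all windows. GGAAATTCC, searched with GGAATTTCC for the other strand, began at position -81 in NFKBIA and was in 0.461% of all windows. A match of letters is a description of the window and no measurement of binding, and sequence outside these windows was not searched.

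Levels are given as CPM, the counts relative to the library size scaled by the TMM method without rRNA genes. A gene was called up- or down-regulated (a DEG) at an adjusted p under 0.05 in the quasi-likelihood test of edgeR with the replicate number as a block and Benjamini-Hochberg adjustment over all 16835 genes that passed the filter on low counts. All 10 members passed this filter. With 7 members called up, the share of all tested genes called up was 11.5%, and with 0 members called down it was 9.37%. The groups did not overlap in CPM, every SAL library being above every DMSO library, for the 4 members SGK1, ERRFI1, ZBTB16 and TIPARP, and for 3.78% of all tested genes. The same 4 members were called and had a fitted change of 1 or more on the log2 scale, as were 3.21% of all tested genes.

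**Figure D1:**
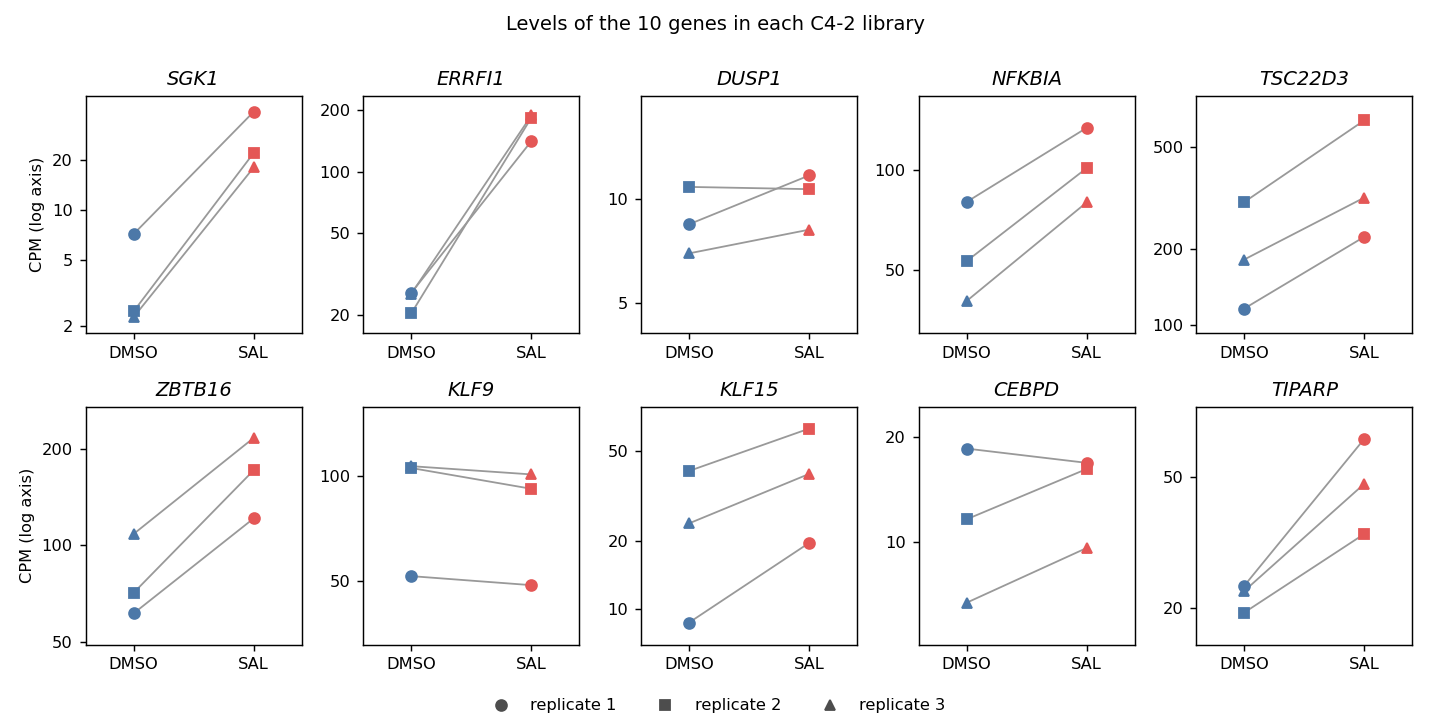
Level of each of the 10 genes in CPM (log axis, with a range of its own in each panel) in the 3 DMSO (blue) and 3 SAL (red) libraries, with lines joining libraries of the same replicate number. SGK1, ERRFI1, ZBTB16 and TIPARP have every SAL library above every DMSO library, TSC22D3, NFKBIA and KLF15 rise within each pair but overlap between pairs, and KLF9 follows the replicate number.

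SGK1 encodes the serum- and glucocorticoid-regulated kinase, which phosphorylates ion channel regulators and FOXO factors (GRCh37 chr6:134490386-134639250, minus strand). Its level was 7.19, 2.46 and 2.27 CPM in DMSO replicates 1 to 3 and 39.2, 22.1 and 18.1 CPM in the SAL replicates, with raw counts between 17 and 58 without androgen and between 147 and 306 under SAL. Replicate 1 was the highest in both groups, and the lowest SAL library was still above the highest DMSO library. The log2 fold change was 2.78 (SE 0.19, adjusted p = 6.54e-08), which is 6.87-fold with a 95% interval of 5.17 to 9.14. All 3 pairs rose, with log2 changes of 2.41, 3.05 and 2.86, and SGK1 held rank 71 by fold among the 1931 up-regulated genes.

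ERRFI1 (MIG6) encodes an adaptor that binds and inhibits receptors of the EGF receptor family (GRCh37 chr1:8064464-8086369, minus strand). Its level was 25.6, 20.4 and 25.4 CPM in the DMSO replicates and 141, 183 and 188 CPM in the SAL replicates. The DMSO libraries lay close together and the SAL libraries were far above them. ERRFI1 rose by 2.83 on the log2 scale (SE 0.13, adjusted p = 1.65e-09), which is 7.13-fold with a 95% interval of 5.88 to 8.64, and the pairs rose by 2.45, 3.15 and 2.88 on the log2 scale. Of the summed squares of log2 CPM over the 6 libraries, 98.6% lay between the treatments and 0.391% between the replicate numbers. ERRFI1 was the only member called in the fit without the replicate block (adjusted p = 0.0470), a fit in which 0.107% of all tested genes were called up.

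NFKBIA encodes the inhibitor IkB-alpha, which holds NF-kB in the cytoplasm and is itself an NF-kB target (GRCh37 chr14:35870285-35873955, minus strand). Its level was 80.2, 53.2 and 40.4 CPM in the DMSO replicates and 134, 101 and 80.0 CPM in the SAL replicates. Levels fell in the same order of replicates in both groups, and the groups overlapped only by DMSO replicate 1 lying just above SAL replicate 3. Its log2 fold change was 0.88 (SE 0.10, adjusted p = 1.12e-05), which is 1.84-fold with a 95% interval of 1.59 to 2.13. The pairs rose by 0.74, 0.93 and 0.98 on the log2 scale.

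DUSP1 encodes the phosphatase MKP-1, which inactivates MAP kinases such as p38 and JNK (GRCh37 chr5:172195099-172198198, minus strand). Its level was 8.43, 10.8 and 6.95 CPM in the DMSO replicates and 11.7, 10.6 and 8.13 CPM in the SAL replicates, from 52 to 97 counts. The groups overlapped, and replicate 3 was the lowest in both. The log2 fold change was 0.22 (SE 0.19, adjusted p = 0.461), with a 95% interval of 0.882-fold to 1.54-fold, and the pairs differed by 0.46, -0.02 and 0.22 on the log2 scale. A rise of over 1.54-fold lies outside this interval. Over these 4 kinases, phosphatases, adaptors and inhibitors the median log2 fold change was 1.83, against -0.0011 over all genes tested.

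TSC22D3 (GILZ) encodes a leucine zipper protein that glucocorticoids induce in lymphocytes and that binds NF-kB and AP-1 (GRCh37 chrX:106956451-107020572, minus strand). Its level was 116, 305 and 182 CPM in the DMSO replicates and 223, 639 and 318 CPM in the SAL replicates. Replicate 2 was the highest in both groups, and DMSO replicate 2 lay above SAL replicate 1. TSC22D3 rose by 0.94 on the log2 scale (SE 0.09, adjusted p = 3.32e-06), which is 1.92-fold with a 95% interval of 1.67 to 2.2, and the pairs rose by 0.94, 1.07 and 0.81. Between the replicate numbers lay 61.7% of its summed squares of log2 CPM and between the treatments 37.9%. Exons of NCBP2L on the other strand share 71 bp (1.43%) with its exons, in an annotation that postdates the authors' own. Since reads were counted without strand, reads there could not be assigned to either gene by strand.

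ZBTB16 encodes PLZF, a zinc finger repressor of transcription that is strongly induced by glucocorticoids and androgens in several cell types (GRCh37 chr11:113929763-114127487, plus strand). Its level was 61.3, 71.1 and 108 CPM in the DMSO replicates and 121, 172 and 216 CPM in the SAL replicates. Replicate 3 was the highest in both groups, and every SAL library was above every DMSO library. The log2 fold change was 1.08 (SE 0.10, adjusted p = 1.31e-06), which is 2.12-fold with a 95% interval of 1.83 to 2.45. The pairs rose by 0.98, 1.27 and 0.99 on the log2 scale.

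KLF15 encodes a Kruppel-like factor that takes part in amino acid and glucose metabolism in liver and muscle (GRCh37 chr3:126061478-126076251, minus strand). Its level was 8.67, 40.9 and 23.9 CPM in the DMSO replicates and 19.6, 63.0 and 39.7 CPM in the SAL replicates. Replicate 1 was the lowest in both groups, and the groups overlapped. It rose by 0.80 on the log2 scale (SE 0.13, adjusted p = 0.000420), which is 1.74-fold with a 95% interval of 1.43 to 2.11, and each pair rose, by 1.15, 0.62 and 0.72. Between the replicate numbers lay 77.4% of the summed squares of log2 CPM of KLF15.

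KLF9 encodes a Kruppel-like factor that thyroid hormone and glucocorticoids induce in brain and other tissues (GRCh37 chr9:72999520-73029573, minus strand). Its level was 51.5, 106 and 107 CPM in the DMSO replicates and 48.5, 92.0 and 101 CPM in the SAL replicates. Replicate 1 was far below the others in both groups, and 98.1% of the summed squares of log2 CPM lay between the replicate numbers, the largest share among the members. Its log2 fold change was -0.12 (SE 0.09, adjusted p = 0.409), with a 95% interval of 0.799-fold to 1.06-fold. With 379 to 839 counts per library, this interval leaves out a rise of the size measured for its relative KLF15 in the same libraries. The rRNA share was highest in replicate 1, and its part in the levels of KLF9, KLF15 and TSC22D3 there was not tested.

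CEBPD encodes C/EBP-delta, a transcription factor of the acute phase response (GRCh37 chr8:48649475-48650726, minus strand). Its level was 18.6, 11.6 and 6.68 CPM in the DMSO replicates and 16.9, 16.2 and 9.61 CPM in the SAL replicates. The groups overlapped, and pair 1 differed by -0.13 on the log2 scale where pairs 2 and 3 differed by 0.47 and 0.51. A log2 fold change of 0.26 was fitted (SE 0.18, adjusted p = 0.357), with a 95% interval of 0.916-fold to 1.56-fold. Without replicate 1 it was 0.50 (adjusted p = 0.0757), also short of the threshold. Over the 5 transcription regulators TSC22D3, ZBTB16, KLF15, KLF9 and CEBPD the median log2 fold change was 0.80.

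TIPARP (PARP7) encodes a mono-ADP-ribosyltransferase that the aryl hydrocarbon receptor induces and that modifies other proteins (GRCh37 chr3:156391024-156424559, plus strand). Its level was 23.4, 19.4 and 22.6 CPM in the DMSO replicates and 65.4, 33.7 and 47.8 CPM in the SAL replicates. The DMSO libraries lay close together, and the SAL libraries were spread more widely and were all above them. TIPARP rose by 1.13 on the log2 scale (SE 0.14, adjusted p = 2.64e-05), which is 2.19-fold with a 95% interval of 1.79 to 2.68. The pairs rose by 1.47, 0.79 and 1.07 on the log2 scale.

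**Figure D2:**
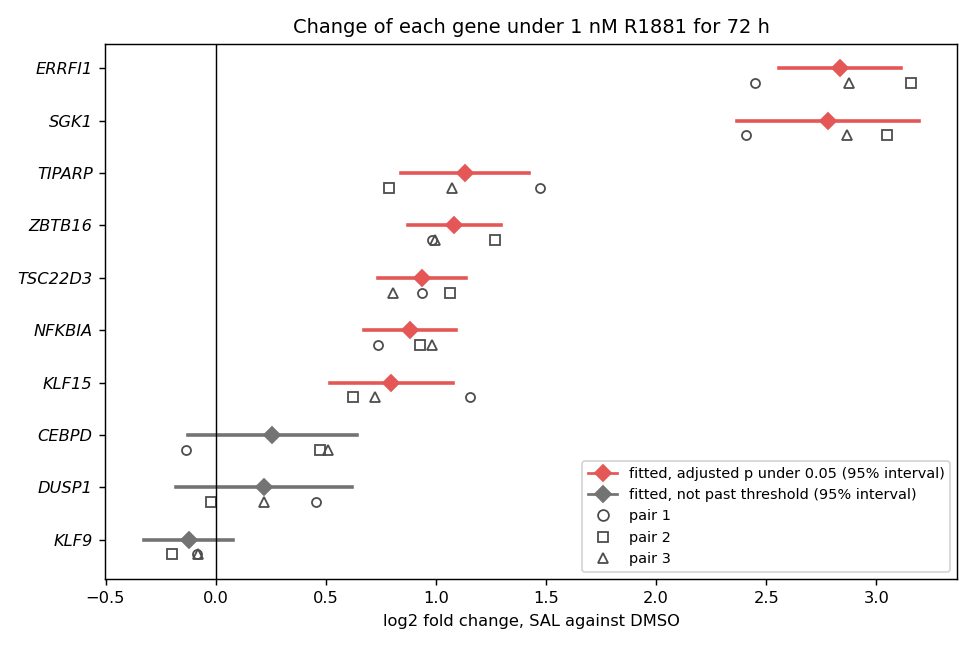
Log2 fold change of SAL against DMSO for each gene, with diamonds and bars for the fitted value and its 95% interval (red where the adjusted p is under 0.05) and open symbols for the change within each pair of replicates. ERRFI1 (2.83) and SGK1 (2.78) stand apart from TIPARP, ZBTB16, TSC22D3, NFKBIA and KLF15 (0.80 to 1.13), and the intervals of CEBPD, DUSP1 and KLF9 cross 0.

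The calls depend on comparing libraries within pairs. DESeq2 with the replicate block also called the 7 members up, where it called 7.66% of all tested genes up. Without the block only ERRFI1 was called, with adjusted p-values of 0.229 for SGK1, 0.818 for TIPARP and 1 for NFKBIA, TSC22D3, ZBTB16 and KLF15. The sizes of the changes moved little over the alternatives, on the log2 scale from 2.60 to 3.08 for SGK1, 2.66 to 3.02 for ERRFI1, 0.94 to 1.27 for TIPARP and 0.67 to 0.89 for KLF15.

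To set the members' levels beside each other, CPM was divided by the length of the canonical transcript in kb. TSC22D3 had the highest level on this scale, 88.6 ± 42.2 CPM per kb in DMSO and 173 ± 96.0 in SAL (SD, n = 3), followed by NFKBIA with 37.1 ± 13 and 67.4 ± 17.4. SGK1 was the lowest in DMSO with 1.22 ± 0.858 CPM per kb, and DUSP1 the lowest in SAL with 5.04 ± 0.900. ERRFI1 moved from rank 7 of the 10 in DMSO, at 7.69 ± 0.960 CPM per kb, to rank 3 in SAL, at 55.2 ± 8.37. SGK1, despite its change of similar size, moved only from rank 10 to rank 9, at 8.16 ± 3.45 CPM per kb in SAL.

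KLF9 had rank 3 in DMSO with 16.9 ± 6.07 CPM per kb and, with nearly the same level, rank 6 in SAL with 15.5 ± 5.41, since ERRFI1, ZBTB16 (19.99 ± 5.59) and KLF15 (16.1 ± 8.56) had passed it. In DMSO the library ranges of KLF9, CEBPD, KLF15, ZBTB16 and ERRFI1 overlapped from each to the next in the order, as did those of TIPARP and DUSP1. These sets were not apart, since the DMSO ranges of KLF15 (3.41 to 16.1) and CEBPD (5.34 to 14.8) also overlapped those of TIPARP and DUSP1. The ranges of TSC22D3 and NFKBIA in DMSO overlapped too, by DMSO replicate 1, where NFKBIA (51.42 CPM per kb) lay just above TSC22D3 (51.33). In SAL the ranges of NFKBIA and ERRFI1 overlapped, and those of ZBTB16, KLF15, KLF9, TIPARP, CEBPD, SGK1 and DUSP1 did from each to the next. Such neighbours are not apart by range, and their order within each library was not compared. Genes further apart in the order could be separate. In SAL the lowest ZBTB16 library (14.29 CPM per kb) lay above the highest of CEBPD (13.5), SGK1 (12.08) and DUSP1 (5.789). In DMSO the lowest KLF9 library (9.91) lay above the highest ERRFI1 library (8.281). The order also depends on which length is used. With all annotated exons joined in place of the canonical transcript, ERRFI1 had rank 2 in SAL, NFKBIA rank 3 and ZBTB16 rank 7, and SGK1 was the lowest in both groups.

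**Figure D3:**
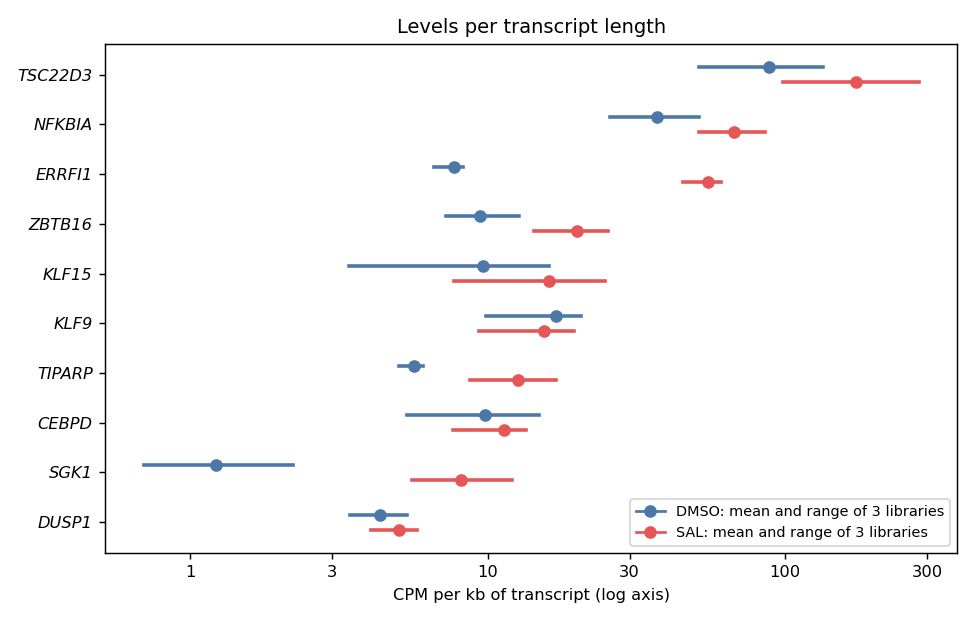
Level of each gene in CPM per kb of its canonical transcript (log axis), with the mean (point) and range (line) of the 3 DMSO (blue) and 3 SAL (red) libraries. TSC22D3 is the highest in both groups, ERRFI1 and SGK1 have the widest gaps between the groups, and the DMSO and SAL ranges overlap for TSC22D3, NFKBIA, KLF15, KLF9, CEBPD and DUSP1.

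The receptors for glucocorticoids, mineralocorticoids and progesterone were measured in the same libraries, and all 3 were called down. NR3C1, the glucocorticoid receptor, had 16, 10 and 10 counts in the DMSO replicates and 1, 4 and 2 in the SAL replicates. Per kb of canonical transcript this was 0.197 to 0.292 CPM in DMSO, against 7.32 to 16.4 CPM per kb for NR3C2. The log2 fold change of NR3C1 was -2.42 (SE 0.60, adjusted p = 0.00902), a call that was lost with DESeq2 (adjusted p = 0.0522), without replicate 3 (0.0636) and without the block (0.363). Without replicate 2 the log2 fold change of NR3C1 was -3.05 (adjusted p = 0.0134).

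NR3C2, the mineralocorticoid receptor, had 342, 545 and 710 counts in the DMSO replicates and 219, 269 and 331 in the SAL replicates. It fell by 1.07 on the log2 scale (SE 0.13, adjusted p = 5.92e-05), in all 3 pairs. PGR, the progesterone receptor, had 21, 29 and 9 counts in DMSO and 4, 0 and 1 in SAL, and it too was down-regulated (log2 fold change -3.58, SE 0.66, adjusted p = 0.00121). Without replicate 2, whose SAL library had 0 counts, the log2 fold change of PGR was -2.56 (adjusted p = 0.0151). Without the block the calls of NR3C2 (adjusted p = 1), PGR (0.363) and KLK3 (1) were lost, and that of FKBP5 (0.0470) was kept.

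The changes of the members can be read beside those of 31 other genes known to be induced by glucocorticoids. Of these, 23 passed the filter, 10 were up-regulated and 4 were down-regulated. Of all tested genes, 11.5% were called up and 9.37% down. The median change of the 23 was 0.51 on the log2 scale, against -0.0011 over all genes tested. FKBP5, the co-chaperone that lowers the hormone affinity of steroid receptors, rose from 114 ± 30.8 to 1170 ± 280 CPM (log2 fold change 3.36, SE 0.11, adjusted p = 1.84e-11), more than any member. CRISPLD2, a secreted protein, had 1, 1 and 4 counts in DMSO and 24, 171 and 107 counts in SAL (log2 fold change 5.34, adjusted p = 1.30e-07).

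GLUL, the glutamine synthetase, rose by 0.73 (adjusted p = 2.83e-05). The down-regulated genes of this list included PIK3R1, a regulatory subunit of PI3-kinase (-0.73, adjusted p = 4.99e-05), DDIT4, an inhibitor of mTORC1 (-0.39, adjusted p = 0.0149), and HSD11B2, the enzyme that inactivates cortisol (-0.72, adjusted p = 0.0328). The list thus held calls in both directions. The 7 members called were all higher, but members and lists were chosen with earlier results of these data known.

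DUSP1 is also an immediate early gene, one that growth factors and stress induce within minutes. Of 27 other immediate early genes, 16 passed the filter, 4 rose and 2 fell, and the median change was 0.07 on the log2 scale. Calls in this paragraph are to be read beside the 11.5% of all tested genes called up and 9.37% called down. The up-regulated ones with the smallest adjusted p were KLF4 (1.48, adjusted p = 3.47e-05), the orphan receptor NR4A1 (1.38, adjusted p = 0.000152) and the stress factor ATF3 (0.60, adjusted p = 0.00225), and KLF10 (-0.57, adjusted p = 0.00294) and DUSP2 (-0.92, adjusted p = 0.00767) were down-regulated. The other MAP kinase phosphatases were likewise split: of 7 tested, DUSP4 (0.43, adjusted p = 0.00863) and DUSP10 (0.70, adjusted p = 0.0127) rose and DUSP2 and DUSP9 (-0.95, adjusted p = 0.00855) fell.

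Among 10 other Kruppel-like factors tested, KLF5 rose most clearly, from 7.03 ± 2.40 to 28.6 ± 14.9 CPM (log2 fold change 1.96, SE 0.18, adjusted p = 1.14e-06). KLF4 rose and KLF10 and KLF11 (-0.68, adjusted p = 0.00392) fell, and the median over the 10 was 0.06. The shares over all tested genes were 11.5% called up and 9.37% called down. Of 4 other C/EBP genes tested none rose, and DDIT3, which encodes the stress factor CHOP (-0.74, adjusted p = 0.00119), and CEBPG (-0.48, adjusted p = 0.00255) fell. Of the 3 relatives of TSC22D3, only TSC22D1 was called, from 132 ± 41.2 to 291 ± 53.8 CPM (log2 fold change 1.17, SE 0.10, adjusted p = 7.56e-07).

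Of 7 tested relatives, activators and substrates of SGK1, 4 were up-regulated and none down-regulated, and their median change was 0.34 on the log2 scale. Over all tested genes 11.5% were called up and 9.37% down. NDRG1, whose protein SGK1 phosphorylates, rose from 39.8 ± 27.9 to 862 ± 557 CPM (log2 fold change 4.45, SE 0.11, adjusted p = 2.64e-12), with pair changes of 4.38, 4.31 and 4.63. The kinase SGK3 rose from 22.6 ± 9.43 to 46.1 ± 18.4 CPM (1.03, adjusted p = 1.27e-05) and the transcription factor FOXO3, which SGK1 inhibits by phosphorylation, by 0.70 (adjusted p = 0.000460). These are RNA levels, and phosphorylation was not measured.

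Around NFKBIA, TIPARP and ERRFI1, calls were also made in 1 or 2 genes of each list, to be read beside the 11.5% of all tested genes called up and 9.37% called down. Of 12 tested NF-kB subunits, inhibitors and kinases, NFKB2 alone was called (0.89, adjusted p = 0.000547), and of 5 tested NF-kB target genes TNFAIP3, which encodes the NF-kB inhibitor A20, was called (1.78, adjusted p = 0.00226) while the other 4 had values below 0. Of 7 tested mono-ADP-ribosyltransferases other than TIPARP, PARP14 was called (0.28, adjusted p = 0.0486), close to the threshold. Of 6 genes of the aryl hydrocarbon receptor pathway, NQO1, a quinone reductase, was called (0.56, adjusted p = 0.000962).

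Of 9 tested feedback inhibitors of receptor tyrosine kinases other than ERRFI1, LRIG1, which promotes the degradation of EGF receptors, rose from 68.0 ± 43.5 to 217 ± 148 CPM (log2 fold change 1.63, SE 0.10, adjusted p = 2.23e-08) and SPRY1, an inhibitor of Ras signalling, fell by 0.90 (adjusted p = 0.000213). The other 7 of these inhibitors did not pass the test. Among all tested genes 11.5% were called up and 9.37% down. Over all 143 listed genes outside the members, 104 were tested, 24 were called up and 14 down. Without replicate 3 these counts were 14 and 4, and without the block FKBP5 alone was called.

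**Figure D4:**
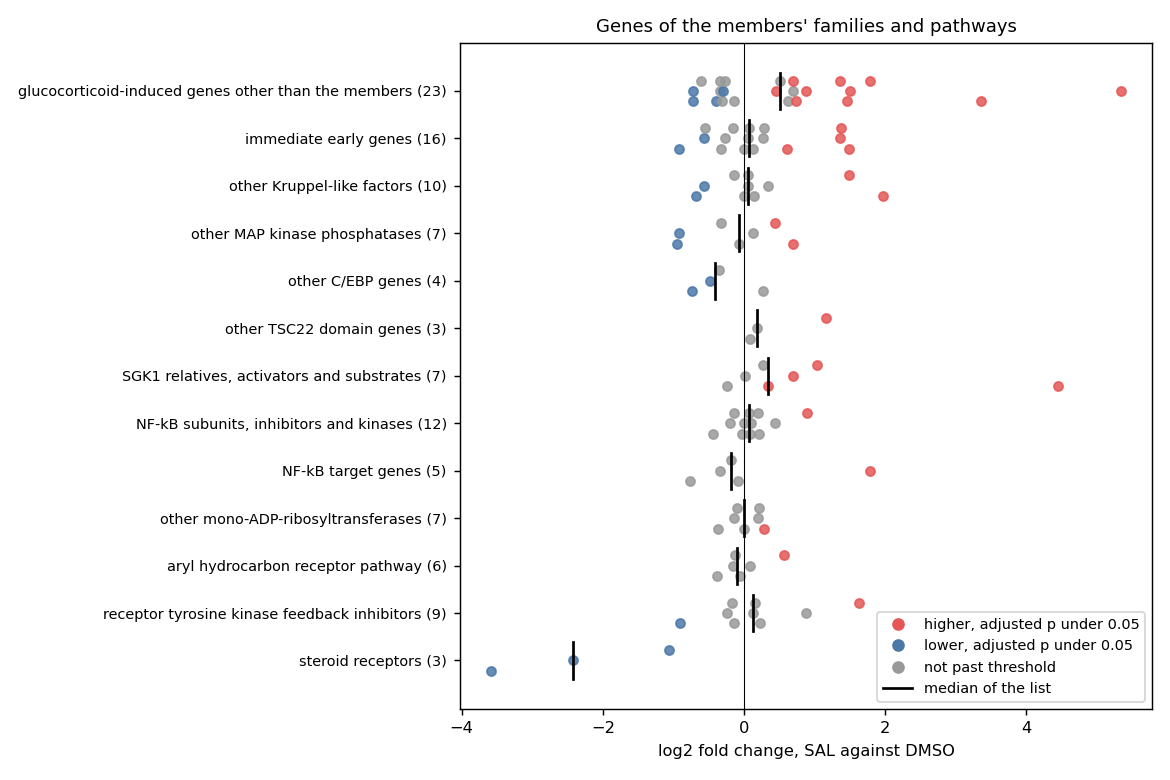
Log2 fold change of SAL against DMSO for the tested genes of each list (number tested in brackets), coloured by call, with the median of the list as a black line. The 3 steroid receptors lie below 0, the list of glucocorticoid-induced genes has 10 genes called up and 4 called down, and the remaining lists have medians between -0.42 and 0.34.

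The tested genes whose levels were most like those of each member were found by Pearson's r of log2 CPM over the 6 libraries, which share their pairs and the treatment, so the values are a description. YIPF1 (r = 0.994) and the mitochondrial arginase ARG2 (r = 0.990) were closest to SGK1. Both were up-regulated, with log2 fold changes of 0.90 and 1.18, below that of SGK1. OR7E47P (r = 0.998), a pseudogene of the olfactory receptor family with near-identical copies, and C1orf21 (r = 0.997) were closest to ERRFI1. C1orf21 had a log2 fold change of 2.65, near that of ERRFI1, while that of OR7E47P was 5.79.

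NAAA, a lipid amidase (r = 0.997), and S100A10, the partner of annexin A2 (r = 0.995), were closest to NFKBIA. EFCAB4A (r = 0.997) and FLJ27365 (r = 0.995) were closest to TSC22D3, FOXD4 (r = 0.991) and ZNF589 (r = 0.986) to ZBTB16, and CCDC64B (r = 0.998) and RGAG4 (r = 0.997) to KLF15. These genes were called up as the members were, but likeness was measured over the same libraries as the calls. For TIPARP, BDH2P1 (r = 0.986) was called and STAMBP (r = 0.985, adjusted p = 0.0711) was not.

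For the members that did not pass the test, the most similar genes did not pass it either. Likeness and calls rest on the same 6 libraries, so shared calls are no separate result. The RNA helicase gene DHX33 and KIAA1958 (both r = 0.999) were closest to KLF9, the glutathione peroxidase GPX4 and RP5-857K21.11 (both r = 0.998) to CEBPD, and C19orf82 (r = 0.983) and the interferon gamma receptor chain IFNGR2 (r = 0.981) to DUSP1. Their log2 fold changes were between -0.20 and 0.38.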

How the data were processed

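RNA-seq counts of 6 C4-2 libraries were analysed, 3 treated with DMSO and 3 with SAL. After trimming, the authors aligned only the forward reads of the pairs, against hg19, with TopHat2 2.1.0 and Bowtie (versions from the submitters' processing notes), and tallied them by gene with HTSeq 0.11.2. The deposited values are raw counts per gene symbol, counted without regard to strand although the library kit was stranded.

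Following the study's methods, 523 symbols of rRNA genes were dropped, and edgeR's filterByExpr left 16835 genes. SAL was compared with DMSO in edgeR 4.0.16 (R 4.3.3) with TMM, the replicate number as a block, a robust quasi-likelihood test and Benjamini-Hochberg adjustment. Each standard error is the size of the log2 fold change over the root of its F statistic. The changes per pair use log2 CPM with a prior count of 2. The pairing comes from the replicate numbers in the labels and the paired test of the study, and libraries of the same number deviated together from their group means (correlations of 0.887, 0.856 and 0.739).

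The members and the gene lists were chosen with earlier results of these data known. Besides the members, the named genes are 3 steroid receptors, KLK3 and FKBP5, up to 3 genes called up and 3 called down of each list by adjusted p, and the 2 genes most like each member with a mean of at least 1 log2 CPM. Some genes stand in several lists, and 1 gene of the lists is not reported here. Positions and lengths of genes were read from a GENCODE release lifted to GRCh37 (the hg19 assembly) that postdates the authors' annotation. Promoter windows come from RefSeq on GRCh38.p14. The fit was tested on simulated data. Alternatives were DESeq2 1.42.0 with the block, its size factors in edgeR, no filter, a minimum of 10 counts per library, no block, inclusion of rRNA genes, and omission of each replicate number in turn. Precision is limited by the number of libraries, 6 in all.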

Additional observations from a re-analysis of the deposited data

How the results depend on the processing

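The 7 calls of members were kept in 8 of 9 alternatives, and KLF9, DUSP1 and CEBPD were called in none. In the fit without the replicate block 1 member was called up (ERRFI1), 1 of the related genes was called up in place of 24, and 0 were called down in place of 14. At a log2 fold change of at least 1, 4 members were called up in place of 7, and 3.21% of all tested genes in place of 11.5%. Leaving out 1 replicate number at a time gave 14 to 23 related genes called up and 4 to 19 called down, with the fewest (14 and 4) without replicate 3 and the most (23 and 19) without replicate 1. Over all genes, 1931 were called up and 1577 down, against 1290 and 950 with DESeq2, 18 and 3 without the block, 750 and 483 without replicate 3, 1572 and 1367 without replicate 2 and 2443 and 1955 without replicate 1. The cause of these differences was not tested. No member changed direction in any alternative. PGR did not pass the low-count filter without replicate 1, and neither PGR nor NR3C1 had 10 counts in every library, so these alternatives gave no value. The search of the promoters gave 0 full elements in the member windows with and without 1 mismatch. Among the members, counts were lowest for SGK1 in DMSO (17 to 58), and among the other named genes CRISPLD2, TNFAIP3, NR3C1 and PGR also rest on few counts.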
